A study of Homo sapiens with 24 samples.

Results

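The genes described here are 7 metallothioneins (MT1A, MT1E, MT1F, MT1G, MT1M, MT1X and MT2A), the zinc-sensing transcription factor MTF1 and the zinc exporter SLC30A1, which are 9 of the 51715 genes in the count files. They were chosen by name, with no measured value in the rule, but with earlier results of these data known. Poly(A)-selected RNA was sequenced from 3 established human cancer cell lines, the epidermoid carcinoma line A-431, the glioblastoma line U-251MG and the osteosarcoma line U-2 OS. Each line was sampled as total RNA, which holds the transcripts of whole cells, and as cytoplasmic RNA, from which nuclei had been removed. The labels give 4 libraries for each of the 6 groups, 24 in all, numbered 1 to 24, and the study compared the fractions to find transcripts detected at different levels in total and cytoplasmic RNA. Each line is a single cell line grown in culture and not a sample of its tumor type, and per the study's methods the libraries of a group are biological replicates, grown as separate cultures of that line.

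Metallothioneins are small cysteine-rich proteins that bind zinc, copper and cadmium. When free zinc in the cell rises, MTF1 binds short DNA motifs called metal response elements and activates metallothionein genes and SLC30A1, whose product moves zinc out of the cell across the plasma membrane. MT2A and the MT1 genes are in addition known to respond to glucocorticoids and to stress.

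The 7 metallothionein genes lie in a cluster on chromosome 16 of GRCh37. MT2A is at chr16:56642496-56643409, MT1E at chr16:56659387-56661024, MT1M at chr16:56666571-56667893, MT1A at chr16:56672578-56673999, MT1F at chr16:56691643-56694610, MT1G at chr16:56700642-56701977 and MT1X at chr16:56716382-56718108. MT1G is on the minus strand and the other 6 are on the plus strand. MTF1 (chr1:38275246-38325264) and SLC30A1 (chr1:211744910-211752503) are on the minus strand of chromosome 1.

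The coding sequences of the metallothioneins are nearly alike, which matters for reads of 100 bases. The coding bases of exon 1 are shown for the 4 metallothioneins with more than a trace of reads, read from the GRCh37 genome on the plus strand. Capitals mark bases that differ from MT2A.
MT2A, chr16:56642568-56642595: atggatcccaactgctcctgcgccgccg
MT1E, chr16:56659764-56659791: atggaCcccaactgctcTtgcgccAcTg
MT1X, chr16:56716453-56716480: atggaCcccaactgctcctgcTcGCcTg
MT1F, chr16:56691971-56691998: atggaCcccaactgctcctgcgccgcTg
In these 28 bases MT1F differed from MT2A at 2 positions, MT1E at 4 and MT1X at 5. Over the whole coding sequence of 183 bases, MT1E and MT1X each shared 92.3% of bases with MT2A, MT1F shared 91.3%, and MT1F and MT1X shared 88.5% with each other. Of all windows of 100 bases along the spliced transcript, 73 of 302 in MT2A (24.2%) were found at another place in the genome with at most 2 mismatches. The share was 17.4% in MT1X and 7.11% in MT1E. None of the 326 windows of MT1F and none of the 5794 windows of SLC30A1 was found elsewhere. Most of the MT2A windows, 56, matched the processed pseudogene MT2P1 (chr4:69242041-69242223), and 41 of the 53 MT1X windows matched the pseudogene MT1XP1. Values of MT2A, MT1X and MT1E are thus uncertain to the extent that reads were placed on such copies. Counting ignored strand, and MT1X overlaps another annotated transcript, ENSG00000259827, whose reads cannot be told apart from its own.

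Promoter sequences, from 250 bases before to 50 bases after the start site (RefSeq, GRCh38.p14), were at hand for 4 of the 9 genes, MT2A, MT1X, SLC30A1 and MTF1. They were searched on both strands for the core of the metal response element, TGCACNC or TGCGCNC. MT2A held 8 matches, MT1X held 4 and SLC30A1 held 2. No match was found in the MTF1 window. Of all 35116 promoters of the same length, 29.6% held at least 1 match, 8.60% at least 2, 0.601% at least 4 and 0.0199% at least 8. The matches nearest upstream of the start site, and the farthest of MT1X and MT2A, are shown with the core in capitals and in the direction in which the core reads, with coordinates from an exact match of the promoter to GRCh37.
MT2A, plus strand, chr16:56642484-56642498: gcgcTGCACTCcacc
MT2A, plus strand, chr16:56642246-56642260: ccgcTGCACCCagcc
MT1X, plus strand, chr16:56716325-56716339: cctcTGCGCCCggcc
MT1X, plus strand, chr16:56716228-56716242: gcggTGCGCCCggcg
SLC30A1, plus strand, chr1:211752542-211752556: gcttTGCACTCggaa
A match is a description of the letters and was not tested as a binding site.

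The libraries held 19918911 to 32394170 counts in genes. One U-2 OS cytoplasmic library, number 13, was left out of the tests because its read totals match no library in the study's table of reads, and 21.5% of its reads lay outside exons, against 16.9% to 17.8% in the other 3 U-2 OS cytoplasmic libraries. Flow cells, tied to libraries by the same read totals, largely separate the fractions. All total libraries ran on flow cell A, as did U-251MG cytoplasmic libraries 19 and 20 and U-2 OS cytoplasmic library 14. Flow cell B held the other cytoplasmic libraries used, and no flow cell could be tied to library 13. For A-431, fraction and flow cell cannot be told apart. Lists of markers went with the labels in part. EGFR averaged 16426 CPM in A-431 total RNA, FABP7 averaged 67.1 CPM in that of U-251MG and COL1A1 1198 CPM in that of U-2 OS, but GFAP averaged only 2.63 CPM in U-251MG total RNA, and IBSP, a bone matrix gene, was at 0 in U-2 OS. Other markers went against the labels in total RNA. Of the 7 of A-431, 5 were called higher in A-431 than in U-2 OS and 2 lower, KRT14 and KRT17, at log2 ratios of -6.49 and -2.09. Of the 6 of U-251MG, 3 were called higher in U-251MG than in U-2 OS and 3 lower, and of the 5 of U-2 OS that were tested, 3 were called higher in U-251MG than in U-2 OS and 2 lower. The nuclear RNA NEAT1 averaged 220.6 CPM in total RNA of A-431 and 709.5 CPM in its cytoplasmic RNA, and was higher in cytoplasmic RNA on average in the other lines too. Of 4 nuclear RNAs listed, 2 were tested, and both had log2 ratios of total over cytoplasmic RNA below 0 in every line. A-431 had ratios of -1.68 and -1.42. For U-251MG they were -1.36 and -1.35, and for U-2 OS -0.82 and -0.54. Within each line edgeR called 1 of the 2 lower in total RNA, and both had an unadjusted p under 0.05. The 2 nuclear RNAs tested thus went against the fraction labels. By capillary electrophoresis, the study saw a nuclear peak in every total sample. Among cytoplasmic samples it reports that peak only for 1 of U-2 OS, which it removed. The part of the 2 nuclear RNAs in the results was not tested.

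MT2A was the most abundant metallothionein in most libraries, MT1E came next, and 3 of the 7 genes had almost no reads. Levels are given as CPM (counts scaled by TMM to the same library size) within a gene. Metallothioneins are compared by their shares of counts and of RPKM (reads scaled to library size and exon length). The 2 measures rank MT2A and MT1E differently on average in U-2 OS cytoplasmic RNA. MT1M had no read in any of the 24 libraries, MT1A had 1 read in all, and MT1G had 17 reads in 8 libraries with at most 4 in a library. These 3 genes did not pass the filter on low counts in any comparison. A count of 0 allows up to 3 reads, which is 0.0949 to 0.156 CPM depending on the library and covers counting error only. Of the 17 MT1G reads, 10 were in U-2 OS total RNA and 5 in the 3 U-2 OS cytoplasmic libraries used, 1 each was in A-431 total and cytoplasmic RNA, and none was in U-251MG.

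**Figure D1:**
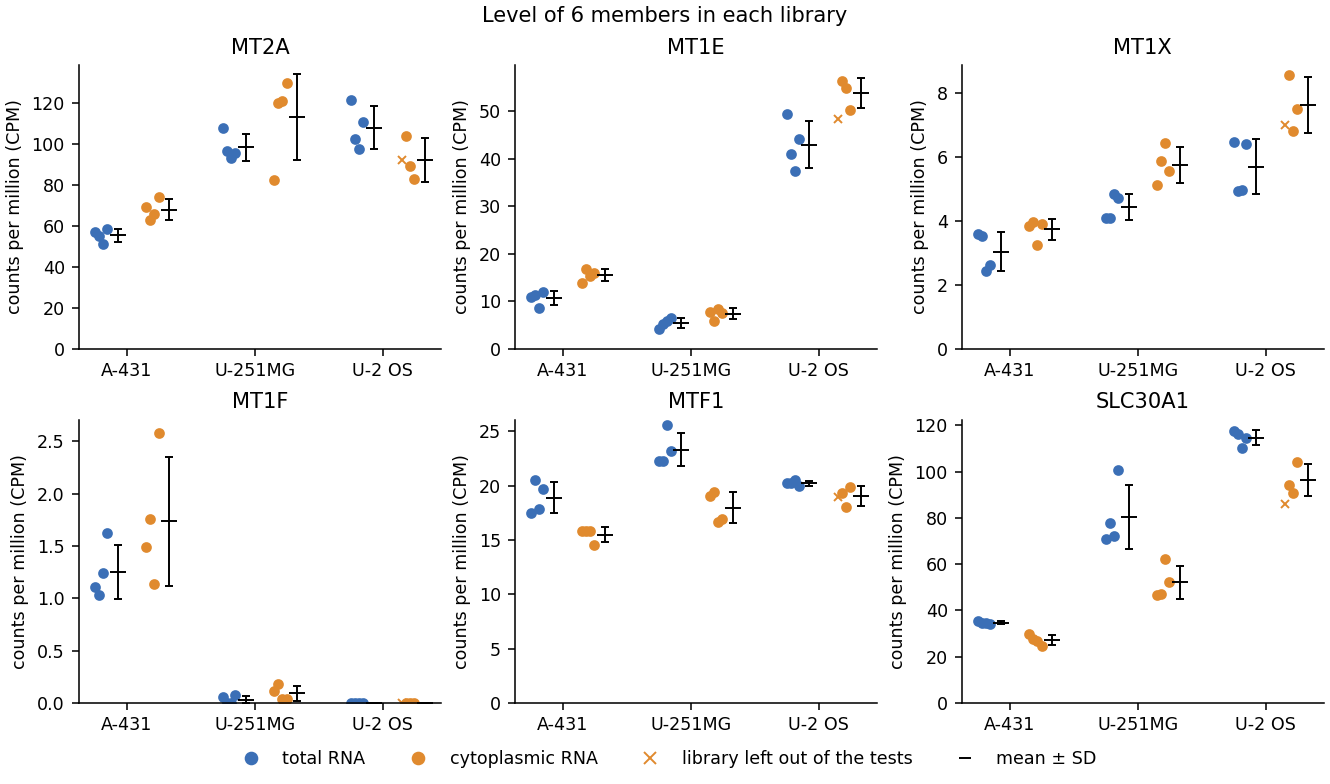
CPM (vertical axis, from 0) of 6 of the genes in every library of A-431, U-251MG and U-2 OS, total RNA in blue left of cytoplasmic RNA in orange, with mean ± SD in black and the U-2 OS library left out of the tests as a cross. MT1F lies near 0 outside A-431, MT1E stands highest in U-2 OS at 37.5 to 56.4 CPM, and SLC30A1 in A-431 lies at 24.7 to 35.5 CPM, below every library of the other lines.

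MT2A was lower in A-431 than in either other line. Its CPM in A-431 were 57.1, 54.9, 51.0 and 58.6 in total RNA and 69.2, 62.7, 65.8 and 74.3 in cytoplasmic RNA. In U-251MG they were 108.0, 96.7, 93.5 and 95.7 in total RNA and 82.4, 120.0, 121.0 and 130.1 in cytoplasmic RNA. In U-2 OS they were 121.6, 102.5, 97.5 and 110.7 in total RNA and 104.04, 89.2 and 83.1 in cytoplasmic RNA. No A-431 library reached the lowest library of U-251MG or U-2 OS in either fraction, whereas U-251MG and U-2 OS overlapped in both. U-251MG cytoplasmic library 17 stood apart, at 82.4 CPM against at least 120.0 in the other 3.

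Among the genes other than MT1F, MT1E varied most between the lines. It had 10.8, 11.3, 8.43 and 11.9 CPM in total RNA of A-431 and 13.9, 16.8, 15.2 and 16.01 CPM in its cytoplasmic RNA. In U-251MG it had 4.10, 5.07, 5.79 and 6.47 CPM in total RNA and 7.75, 5.74, 8.35 and 7.55 CPM in cytoplasmic RNA. In U-2 OS the values were 49.3, 40.9, 37.5 and 44.1 CPM in total RNA and 56.4, 54.9 and 50.2 CPM in cytoplasmic RNA. The order U-2 OS, A-431, U-251MG held without overlap in both fractions. Between lines, 63.1% to 78.6% of all genes did not overlap, depending on the pair and the fraction.

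MT1X was low everywhere, with smaller steps between lines. It had 3.58, 3.54, 2.44 and 2.61 CPM in total RNA of A-431 and 3.83, 3.97, 3.26 and 3.89 CPM in its cytoplasmic RNA. U-251MG had 4.10, 4.09, 4.85 and 4.71 CPM in total RNA and 5.12, 5.89, 6.45 and 5.56 CPM in cytoplasmic RNA. U-2 OS had 6.48, 4.93, 4.96 and 6.41 CPM in total RNA and 8.57, 6.82 and 7.504 CPM in cytoplasmic RNA. In each fraction the lines followed one another from A-431 to U-251MG to U-2 OS without overlap.

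MT1F was detected in A-431 only beyond a few reads. Its counts there were 27, 24, 38 and 38 in total RNA and 47, 53, 33 and 73 in cytoplasmic RNA. U-251MG libraries had at most 5 reads, and no read was counted in any U-2 OS library. Pooled over libraries, the CPM of MT1F were at least 43.8-fold higher in A-431 than in U-2 OS in total RNA and at least 49.0-fold higher in cytoplasmic RNA, with a floor of 3 counts over the U-2 OS libraries. Against U-251MG, with 3 reads in total RNA and 10 in cytoplasmic RNA, the ratio was 41.1 (exact 95% interval 13.8 to 202.1) in total RNA and 18.7 (9.95 to 39.5) in cytoplasmic RNA. These intervals cover counting error only.

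MTF1, the regulator, varied little. Its CPM in A-431 were 17.5, 20.5, 17.8 and 19.7 in total RNA and 15.8, 15.8, 15.8 and 14.5 in cytoplasmic RNA. U-251MG had 22.2, 22.3, 25.5 and 23.1 CPM in total RNA and 19.003, 19.4, 16.6 and 16.9 CPM in cytoplasmic RNA. U-2 OS had 20.2, 20.2, 20.5 and 19.9 CPM in total RNA and 19.3, 18.1 and 19.8 CPM in cytoplasmic RNA. Within every line the lowest total library lay above the highest cytoplasmic one, while between lines some groups overlapped. Of all genes tested, 45.2% for A-431, 43.97% for U-251MG and 32.8% for U-2 OS had fractions that did not overlap.

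SLC30A1 was highest in U-2 OS and lowest in A-431. In A-431 it had 35.5, 34.6, 34.6 and 33.9 CPM in total RNA and 29.8, 27.8, 26.7 and 24.7 CPM in cytoplasmic RNA. In U-251MG it had 70.8, 77.7, 72.2 and 100.5 CPM in total RNA and 46.8, 47.2, 62.3 and 52.4 CPM in cytoplasmic RNA. In U-2 OS it had 117.6, 116.4, 110.3 and 114.5 CPM in total RNA and 94.1, 90.7 and 104.1 CPM in cytoplasmic RNA. The 3 lines did not overlap within either fraction, and total lay above cytoplasmic RNA in each line. The library left out, U-2 OS cytoplasmic 13, had 92.3 CPM of MT2A, 48.3 of MT1E, 7.01 of MT1X, 18.9 of MTF1 and 86.2 of SLC30A1, so that MT1E and SLC30A1 lay below the other 3 libraries of its group and the rest within them.

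The makeup of the metallothionein reads differed between the lines. MT2A gave 78.9% ± 1.34 of the counts of the 7 genes in A-431 total RNA and 76.4% ± 1.99 in A-431 cytoplasmic RNA (SD, n = 4 each). In U-251MG it gave 90.9% ± 1.58 and 89.3% ± 2.14 in total and cytoplasmic RNA (n = 4 each). In U-2 OS its share was 68.9% ± 0.5001 in total RNA (n = 4) and 59.9% ± 1.47 in cytoplasmic RNA (n = 3). MT1E made up most of the rest, with 15.03% and 17.4% of counts in total and cytoplasmic RNA of A-431, 4.98% and 5.97% for U-251MG, and 27.4% and 35.1% for U-2 OS. In U-2 OS every cytoplasmic library had a larger MT1E share than every total library. As a share of summed RPKM, MT1E gave 48.2% ± 1.504 and MT2A 46.7% ± 1.92 in U-2 OS cytoplasmic RNA (n = 3). In U-2 OS total RNA the 2 shares were 35.9% ± 3.50 and 60.6% ± 3.53 (n = 4). The transcript of MT1E is 746 bases long and that of MT2A 401, so scaling to these lengths would lower the MT1E share of counts. Why its share of RPKM was higher was not tested, and the RPKM shares are not read as shares per length. The summed level of the 7 genes was 70.3 ± 5.07 CPM in total RNA of A-431 and 89.0 ± 5.43 in its cytoplasmic RNA (SD). It was 108.3 ± 5.45 and 126.6 ± 21.3 CPM in the 2 fractions of U-251MG, and 156.8 ± 16.3 and 153.6 ± 14.2 CPM in those of U-2 OS, with n as above.

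**Figure D2:**
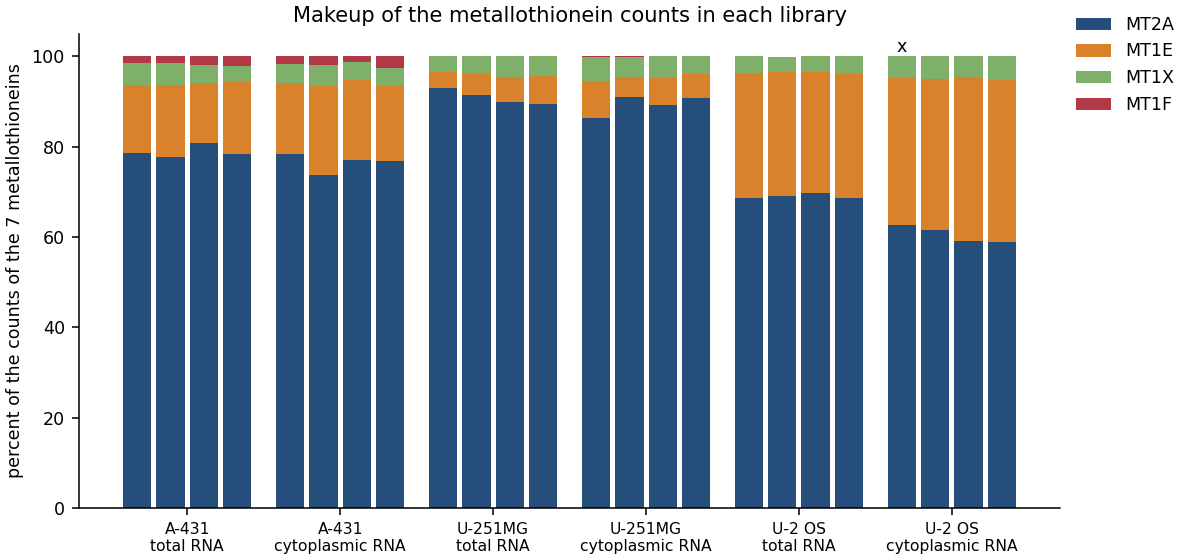
Percent of the counts of the 7 metallothioneins (vertical axis) that came from MT2A, MT1E, MT1X and MT1F in each library, 1 bar per library, total RNA left of cytoplasmic RNA, with x above the U-2 OS library left out of the tests. MT2A takes 86.4% to 92.9% of the bar in U-251MG, MT1E reaches 33.4% to 36.3% in the U-2 OS cytoplasmic libraries used, and MT1F is visible in A-431.

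The comparison of total with cytoplasmic RNA within each line answers which of these transcripts were detected at different levels in the 2 fractions. SLC30A1 was called higher in total RNA in A-431 and U-2 OS, and MT1E was called lower in total RNA in A-431. These calls were lost under several other settings. The ratio of SLC30A1 was largest in U-251MG, where it narrowly missed the threshold, and its fraction ratio was not called as different between lines. The test was edgeR's quasi-likelihood test with Benjamini-Hochberg adjustment over all genes tested, and a gene was called at an adjusted p below 0.001. In A-431, 2 of the 6 genes tested were called, against 19.7% of all genes tested (10.2% higher and 9.51% lower in total RNA), and their median log2 ratio was -0.30, against -0.01 for all genes. In U-251MG 0 of 5 was called, against 12.9% of all genes (5.93% higher and 6.98% lower). Of the 5, 4 had an unadjusted p under 0.05 and DESeq2 called 2, against 8967 and 4243 of all 16128 genes. The median log2 ratio of the 5 members was -0.21. In U-2 OS 1 of 5 was called, against 8.36% of all genes (4.75% higher and 3.61% lower). Their median was 0.10. With the study's replicate number as a block 2 of the members were called, and the share of all genes called in that fit is not at hand.

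SLC30A1 averaged 34.7 ± 0.656 CPM in total RNA of A-431 and 27.2 ± 2.12 CPM in its cytoplasmic RNA (SD, n = 4 each). The log2 ratio was 0.35 (SE 0.0677, edgeR adjusted p = 0.000433). In U-2 OS the means were 114.7 ± 3.17 CPM in total RNA (n = 4) and 96.3 ± 6.96 CPM in cytoplasmic RNA (n = 3), and the log2 ratio was 0.27 (SE 0.0538, edgeR adjusted p = 0.000215). U-251MG gave 80.3 ± 13.8 and 52.2 ± 7.21 CPM in total and cytoplasmic RNA. Its log2 ratio of 0.61 (SE 0.118) missed the threshold (edgeR adjusted p = 0.00139). That ratio was called with DESeq2 (DESeq2 adjusted p = 9.67e-06) and with no filter (edgeR adjusted p = 0.000279). It was also called without total library 8 (0.496, edgeR adjusted p = 0.000929) or cytoplasmic library 19 (0.71, edgeR adjusted p = 0.000412). With the libraries of flow cell A alone, the U-251MG ratio was 0.47 (edgeR adjusted p = 0.0219), and that of U-2 OS, with 1 cytoplasmic library taken to vary like the total ones, was 0.29 (edgeR adjusted p = 0.0155). The calls were lost on RPKM values with limma, where the A-431 ratio was 0.05, and with an offset for GC content, where it was 0.14 in both A-431 and U-2 OS and 0.35 (edgeR adjusted p = 0.0181) in U-251MG. That of A-431 was lost with a transcript length offset too (0.27, edgeR adjusted p = 0.00246). Both were also lost in 1 model over all groups, at 0.34 (edgeR adjusted p = 0.00568) in A-431 and 0.27 (0.0606) in U-2 OS, while the U-251MG ratio was called there, at 0.64 (edgeR adjusted p = 2.05e-06). In A-431 the call was also lost without total library 9 or 12 or cytoplasmic library 22 or 23 (edgeR adjusted p of 0.00221, 0.00133, 0.00139 and 0.00184), and in U-2 OS without total library 2 or cytoplasmic library 14 or 15 (edgeR adjusted p of 0.00191, 0.00613 and 0.0110).

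MT1E averaged 10.6 ± 1.52 CPM in total RNA of A-431 and 15.5 ± 1.23 CPM in its cytoplasmic RNA (SD, n = 4 each). The log2 ratio was -0.55 (SE 0.1004, edgeR adjusted p = 0.000309), and no total library reached a cytoplasmic one. In U-2 OS the groups did not overlap either, at 43.0 ± 5.03 CPM in total RNA and 53.8 ± 3.19 CPM in cytoplasmic RNA, but the ratio of -0.31 (SE 0.0705) missed the threshold (edgeR adjusted p = 0.00152). It was called there without total library 1 (ratio -0.37, edgeR adjusted p = 0.000129) and with no filter (ratio -0.32, edgeR adjusted p = 1.22e-05). The replicate block, to which total library 1, having no partner, adds nothing, gave a call too (ratio -0.37, edgeR adjusted p = 1.29e-07). In U-251MG the ratio was -0.46 (SE 0.152, edgeR adjusted p = 0.0240) and the groups overlapped. The A-431 call was lost without total library 9 (edgeR adjusted p = 0.00135), without cytoplasmic library 22 (0.00159), with the GC offset (ratio -0.42, edgeR adjusted p = 0.00186) and on RPKM values with limma (ratio -0.56, adjusted p = 0.222).

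The log2 ratios of MT1X were below 0 in the 3 lines and none passed the threshold. They were -0.30 (SE 0.144) for A-431, -0.38 (SE 0.123) for U-251MG and -0.40 (SE 0.122) for U-2 OS, with edgeR adjusted p of 0.0903, 0.0199 and 0.0107. MT1F in A-431 had a ratio of -0.46 (SE 0.234, edgeR adjusted p = 0.109), and its groups overlapped. MTF1 had ratios of 0.29, 0.37 and 0.10 in A-431, U-251MG and U-2 OS, with edgeR adjusted p of 0.00484, 0.00413 and 0.316. The U-251MG ratio of MTF1 was called with DESeq2 (0.37, DESeq2 adjusted p = 0.000485) and in 1 model over all groups (0.38, edgeR adjusted p = 9.34e-05). Under leaving out each library in turn these ratios of MT1X, MT1F and MTF1 kept their sign, but that of MT1F in A-431 was -0.22 without cytoplasmic library 24, that of MT1X in A-431 was -0.19 without total library 11 and that of MTF1 in U-2 OS was 0.06 without cytoplasmic library 15.

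The log2 ratios of MT2A lay on both sides of 0. Its log2 ratio was -0.29 (SE 0.0622) in A-431, where no total library reached a cytoplasmic one and the edgeR adjusted p of 0.00103 missed the threshold, which DESeq2 passed (adjusted p = 7.97e-05). The GC offset gave -0.09 there. The ratio was -0.21 (SE 0.121, edgeR adjusted p = 0.168) in U-251MG, where the GC offset gave 0.06, flow cell A alone gave -0.36 (edgeR adjusted p = 0.01004) and leaving out 1 library gave -0.35 (without cytoplasmic library 17) to -0.14 (without cytoplasmic library 20). It was 0.25 (SE 0.0791, edgeR adjusted p = 0.0276) in U-2 OS, where it was 0.06 on flow cell A alone, which holds 1 of the cytoplasmic libraries, number 14, the highest of the 3. The difference between the ratios of A-431 and U-2 OS, tested as an interaction in 1 model over all 6 groups, was -0.55 (SE 0.148, edgeR adjusted p = 0.0487) and just passed the threshold of 0.05. In this comparison 2.12% of all genes were called, and MT2A was the 1 that was among the 5 members with reads in every group. The call was lost with RLE scaling (edgeR adjusted p = 0.0707), no filter (0.0666), thinned counts (0.0644), the GC offset (0.170), the length offset (0.122), the replicate block (0.155) and on RPKM values, and it was kept with DESeq2, all deposited libraries or pseudogene counts added. It was kept in 4 of 23 fits that each left out 1 library, those without U-2 OS total library 3, U-2 OS cytoplasmic library 14 or U-251MG cytoplasmic library 17 or 20, and the edgeR adjusted p over the 23 fits was 0.00420 to 0.182. The difference itself was -0.64 to -0.48 in those fits.

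No other member was called for a difference in fraction ratio between lines. Against U-251MG, the ratios of A-431 gave 0 calls among the 5, against 0.160% of all genes. Of the 5, 1 had an unadjusted p under 0.05 and DESeq2 called 0, against 1529 and 65 of all 19948 genes. The difference between U-251MG and U-2 OS gave 0 calls, against 1.67% of all genes. Here 3 of the 5 had an unadjusted p under 0.05 and DESeq2 called 0, against 3850 and 1015 of the 19948. The 3 were MT2A at -0.44 (SE 0.147), MTF1 at 0.29 (SE 0.111) and SLC30A1 at 0.37 (SE 0.132). Without U-251MG cytoplasmic library 17 that of MT2A was called at -0.55 (edgeR adjusted p = 0.0147), and without U-251MG cytoplasmic library 19 or total library 5 that of SLC30A1 was called at 0.47 and 0.44 (edgeR adjusted p of 0.0279 and 0.0482).

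**Figure D3:**
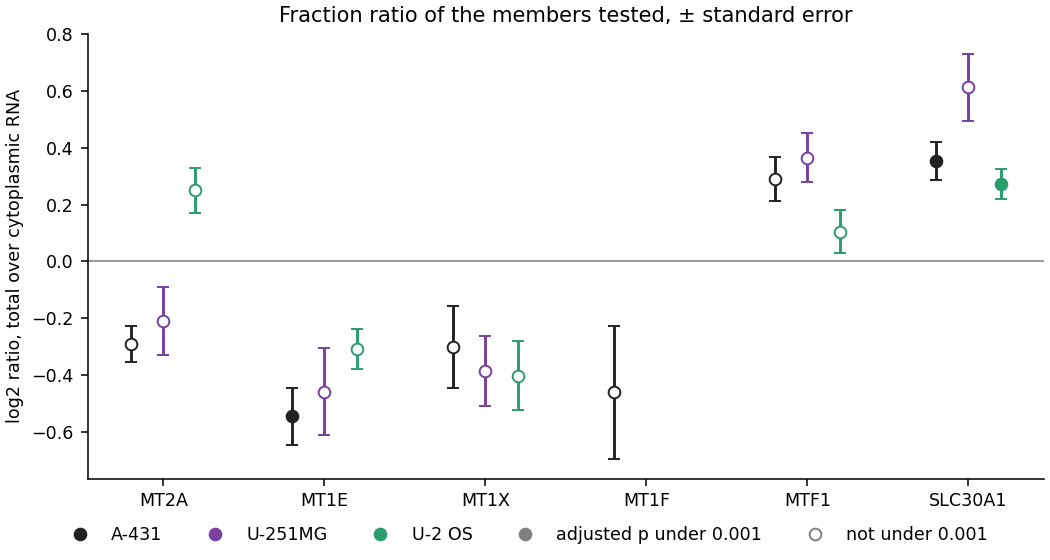
Log2 ratio of total over cytoplasmic RNA (vertical axis) with its standard error for the members tested in A-431, U-251MG and U-2 OS, filled where the edgeR adjusted p is under 0.001. MT1E, MT1X and MT1F lie below 0, MTF1 and SLC30A1 above it, and MT2A lies at -0.29 in A-431 and -0.21 in U-251MG (0.06 with a GC offset) but at 0.25 in U-2 OS.

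The comparison between lines asks how far each gene's level differs from one cell line to another. It is made within a fraction, in the same model over all 6 groups and with an adjusted p below 0.001. A share of 57.6% to 65.9% of all genes passed in each of these comparisons, so a call is the usual outcome here. MT1F passed the filter on low counts here through A-431 alone and is left out of these counts. For A-431 against U-2 OS, 4 of 5 members were called in total RNA, against 65.9% of all genes (29.7% higher and 36.2% lower), and 5 of 5 in cytoplasmic RNA, against 64.3% (29.7% and 34.6%). For A-431 against U-251MG, 5 of 5 were called in total RNA and 4 of 5 in cytoplasmic RNA, against 57.6% (28.3% higher and 29.3% lower) and 58.6% (29.5% and 29.1%). For U-251MG against U-2 OS, 2 of 5 were called in each fraction, against 62.9% (28.0% higher and 34.9% lower) and 61.2% (27.1% and 34.1%), and these were MT1E and SLC30A1. The median log2 ratio of the 5 was -1.03 and -1.08 for A-431 over U-2 OS in total and cytoplasmic RNA, against -0.11 and -0.07 for all genes.

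MT1E had the largest ratio between lines among the genes other than MT1F. It was -3.03 (SE 0.122) for U-251MG over U-2 OS in total RNA and -2.91 (SE 0.121) in cytoplasmic RNA. For A-431 over U-2 OS it was -2.09 (SE 0.113) and -1.84 (SE 0.113), and for A-431 over U-251MG it was 0.94 (SE 0.129) and 1.06 (SE 0.118). All 6 were called, with edgeR adjusted p from 9.36e-21 to 9.94e-08. SLC30A1 was called in all 6 as well. Its ratio for A-431 over U-2 OS was -1.80 (SE 0.0936) in total RNA and -1.87 (SE 0.0989) in cytoplasmic RNA, for A-431 over U-251MG -1.24 and -0.95, and for U-251MG over U-2 OS -0.55 and -0.92. The largest of its edgeR adjusted p was 2.17e-06. On RPKM values with limma, the calls of MT1E for A-431 over U-251MG were lost in total RNA (1.15, adjusted p = 0.00183) and cytoplasmic RNA (0.97, adjusted p = 0.00712), and that of SLC30A1 in cytoplasmic RNA was lost at -0.57 (adjusted p = 0.00839).

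MT2A was lower in A-431 than in U-2 OS by log2 ratios of -1.03 (SE 0.102) in total RNA and -0.48 (SE 0.107) in cytoplasmic RNA, and than in U-251MG by -0.86 and -0.75. All 4 were called, with the largest edgeR adjusted p at 0.000208 for A-431 over U-2 OS in cytoplasmic RNA. That call was lost without A-431 cytoplasmic library 22 (adjusted p = 0.00106) or U-2 OS cytoplasmic library 14 (ratio -0.39, edgeR adjusted p = 0.00367). U-251MG over U-2 OS was -0.17 (edgeR adjusted p = 0.114), or 0.04 with the GC offset, in total RNA and 0.26 (edgeR adjusted p = 0.0297) in cytoplasmic RNA, and without U-251MG cytoplasmic library 17 the cytoplasmic ratio was 0.39 and was called (edgeR adjusted p = 9.18e-05). MT1X was lower in A-431 than in U-2 OS, at -0.98 and -1.08 in total and cytoplasmic RNA, and than in U-251MG, at -0.58 and -0.63. The call of -0.58 in total RNA (edgeR adjusted p = 0.000497) was lost without A-431 total library 11 or 12 or U-251MG total library 7 or 8, at edgeR adjusted p of 0.00472, 0.00324, 0.00203 and 0.00214. It was also lost with thinned counts (-0.46, edgeR adjusted p = 0.00986), with the GC offset (-0.4958, edgeR adjusted p = 0.00208) and on RPKM values with limma (adjusted p = 0.00170), where the call of -0.63 was lost too (adjusted p = 0.0107).

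MTF1 differed little between lines, and its 2 calls were lost under several alternatives. It was lower in A-431 than in U-251MG in total RNA, at -0.33 (SE 0.0754, edgeR adjusted p = 0.000203), and than in U-2 OS in cytoplasmic RNA, at -0.35 (SE 0.0813, edgeR adjusted p = 0.000293). With an offset for transcript length the 2 ratios were 0.03 and 0.14. The first was lost without A-431 total library 9 or 11 or U-251MG total library 7, at edgeR adjusted p of 0.00176, 0.00106 and 0.00129. The second was lost without A-431 cytoplasmic library 24 or U-2 OS cytoplasmic library 14 or 16, at edgeR adjusted p of 0.00169, 0.00177 and 0.00315. The transcript of MTF1 is 7937 bases long, against 401 bases for MT2A.

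**Figure D4:**
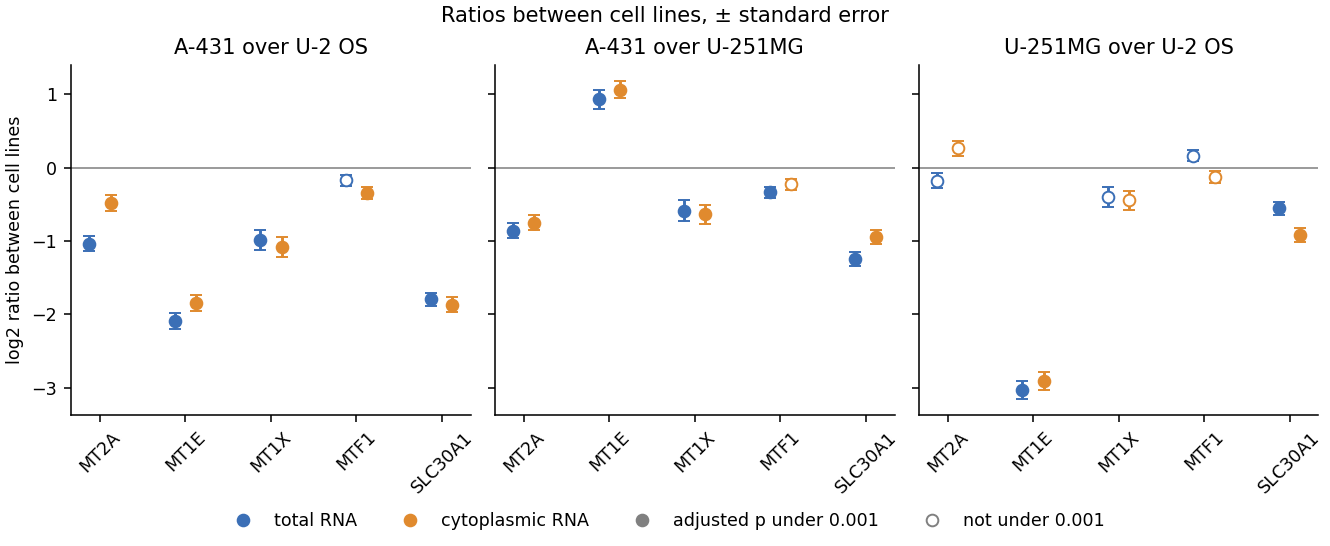
Log2 ratio between cell lines (vertical axis) with its standard error for 5 of the genes, total RNA in blue left of cytoplasmic RNA in orange, filled where the edgeR adjusted p is under 0.001. MT1E reaches -3.03 for U-251MG over U-2 OS, SLC30A1 is below 0 in every panel, and the MTF1 ratios shown stay between -0.35 and 0.16 (0.03 and 0.14 for the 2 called ones with a transcript length offset).

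Across the 23 libraries used, the log2 CPM of the genes were related in part. As a description, with libraries sharing lines and fractions, Pearson's r was 0.76 for MT2A with MT1X, 0.70 for MT2A with SLC30A1 and 0.09 for MT2A with MT1E. After group means were removed these were 0.42, 0.09 and 0.05. MTF1 with MT2A gave 0.31 and, after group means were removed, -0.37. In the same order, MTF1 gave 0.64 and -0.21 with SLC30A1, 0.17 and 0.06 with MT1X, and -0.16 and 0.04 with MT1E. MT1X with SLC30A1 gave 0.71 and 0.30, MT1E with MT1X 0.49 and 0.47, and MT1E with SLC30A1 0.44 and 0.42. Among genes outside the list whose log2 CPM averaged 3 or more, those 5 that followed MT2A most closely were its pseudogene MT2P1 (r = 0.94), TBC1D13, POLD2, PHF1 and the gene ENSG00000198211 (r = 0.93 each), out of 10294 genes. As 56 of the 302 windows of MT2A matched MT2P1, reads of these 2 are not fully separate. Their r is thus not read as a likeness of 2 independent genes.

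Of 14 further metallothionein genes and pseudogenes, 11 are in the files and 3 were tested, all processed pseudogenes. MT2P1 averaged 17.6 and 19.03 CPM in total and cytoplasmic RNA of A-431, 34.9 and 34.5 CPM in those of U-251MG, and 41.7 and 28.7 CPM in those of U-2 OS. It had 25.4 to 41.1 counts for every 100 of MT2A in the libraries used. Its fraction ratio in U-2 OS was 0.56 (edgeR adjusted p = 1.60e-05), the 1 call among these 3 genes in the fraction comparisons, and its ratio in A-431 differed from that in U-2 OS by -0.68 (edgeR adjusted p = 0.0104). With its counts added to those of MT2A, the MT2A ratio was -0.25 in A-431 (edgeR adjusted p = 0.00261) and 0.33 in U-2 OS (0.00735), and the difference between them was -0.59 (0.0227). MT1P3 and MT1XP1 averaged at most 4.53 and 1.59 CPM in any group. MT3, the brain metallothionein, had a mean of 0.0374 CPM in U-251MG cytoplasmic RNA, under the limit that a count of 0 allows, and was at 0 in the other groups.

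For the lists of other genes, the shares of all genes called are those given above, between fractions 19.7% for A-431, 12.9% for U-251MG and 8.36% for U-2 OS, and 57.6% to 65.9% between lines. Of 9 other zinc exporters, the 4 with the highest levels had their lowest means of total RNA in U-2 OS. The 6 tested within lines had median log2 fraction ratios of 0.27 for A-431, 0.32 for U-251MG and 0.11 for U-2 OS. SLC30A6 in A-431 was called, at 0.43 (edgeR adjusted p = 7.32e-05). By edgeR 0 were called in U-251MG and U-2 OS, where 5 and 3 had an unadjusted p under 0.05 and DESeq2 called 3 and 0. Between lines 7 were tested. For U-251MG over U-2 OS 4 were called higher and 2 lower in each fraction, and for A-431 over U-2 OS 3 higher and 2 lower in each. SLC30A9, which is needed for zinc balance in mitochondria, averaged 113.7, 202.4 and 92.4 CPM in total RNA of A-431, U-251MG and U-2 OS. SLC30A5 and SLC30A6, which work as a pair that loads zinc into the secretory pathway, averaged 89.9, 129.7 and 54.2 CPM and 120.2, 106.1 and 50.1 CPM in the same order. SLC30A7, an exporter of the Golgi, averaged 88.8, 94.6 and 36.8 CPM. Each of these 4 had its lowest mean in U-2 OS total RNA, the line in which SLC30A1 was highest. As 3 exporters were called higher for A-431 over U-2 OS in total RNA, not all of these 4 were called higher there.

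Of 14 zinc importers, 11 were tested in A-431 and U-2 OS and between lines, and 10 in U-251MG. In A-431 2 were called higher and 1 lower in total RNA, in U-251MG 1 was called in each direction, and in U-2 OS 1 was called higher and 0 lower, with median log2 fraction ratios of 0.12, 0.10 and 0.08. SLC39A7, which releases zinc from the endoplasmic reticulum, had ratios of -0.23, -0.30 and -0.17 in A-431, U-251MG and U-2 OS that were not called. The ratios of SLC39A6, a plasma membrane importer, were 0.31, 0.33 and 0.14, and those of A-431 and U-251MG were called (edgeR adjusted p of 0.000241 and 0.000858). SLC39A9 averaged 259.5, 101.1 and 145.9 CPM in total RNA of A-431, U-251MG and U-2 OS, with a log2 ratio for A-431 over U-251MG of 1.33 (edgeR adjusted p = 3.30e-21). SLC39A1 averaged 140.2, 154.5 and 115.0 CPM. For A-431 over U-2 OS in total RNA 5 importers were called higher and 3 lower, and for U-251MG over U-2 OS 6 and 3.

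**Figure D5:**
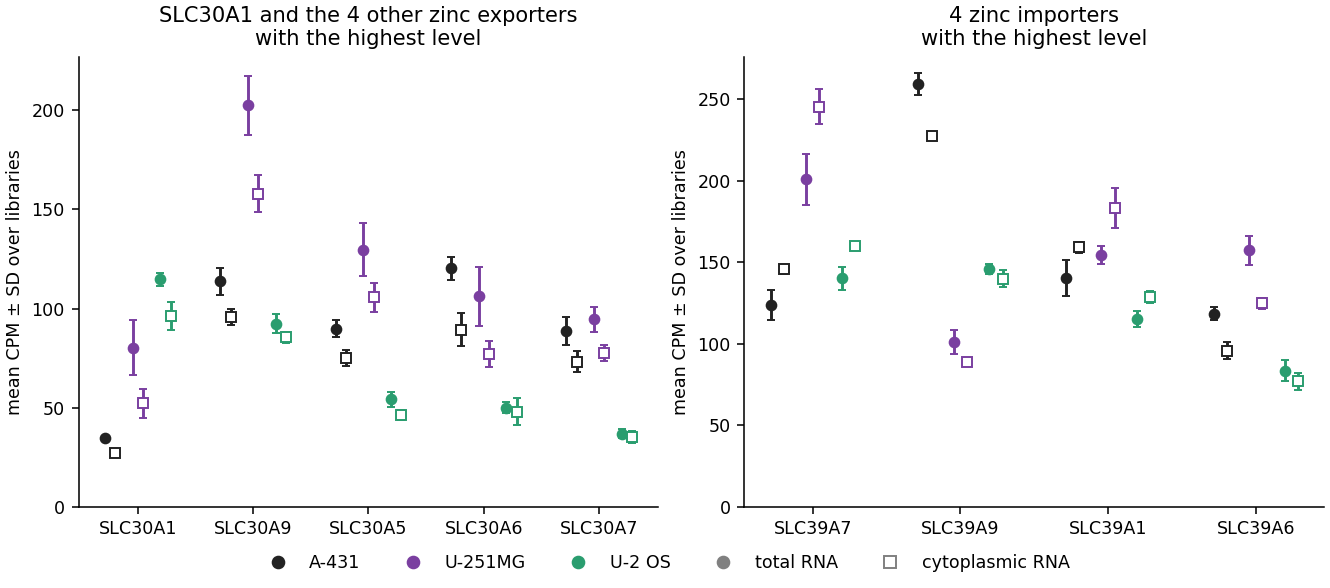
Mean CPM ± SD (vertical axes, from 0) of SLC30A1 and the 4 other exporters with the highest level, and of the 4 importers with the highest level, in total RNA (circles) and cytoplasmic RNA (squares) of A-431, U-251MG and U-2 OS. In total RNA SLC30A1 averages 34.7 CPM for A-431, 80.3 CPM for U-251MG and 114.7 CPM for U-2 OS, whereas SLC30A5, SLC30A6, SLC30A7 and SLC30A9 are lowest in U-2 OS.

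Metallothioneins also bind copper, and 8 of 8 genes of copper handling were tested. Within A-431 2 were called higher and 1 lower in total RNA, within U-251MG 0 by edgeR, and within U-2 OS 1 lower. The median log2 fraction ratios were -0.15, -0.17 and -0.18 in that order. In U-251MG 5 of the 8 had an unadjusted p under 0.05 and DESeq2 called 3, against 8967 and 4243 of all 16128 genes. ATP7A, the copper exporting ATPase, had a ratio of 0.57 in A-431 (edgeR adjusted p = 3.58e-06), and SLC31A1, the copper importer, one of 0.26 (0.000841). ATOX1, the chaperone that hands copper to ATP7A, had a ratio of -0.61 in U-2 OS (edgeR adjusted p = 6.52e-07). Between lines, SLC31A1 was higher in A-431 than in U-2 OS in total RNA at 1.09 (edgeR adjusted p = 1.501e-16), and COMMD1 was lower at -0.48 (8.92e-06).

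Of 8 glucocorticoid-responsive genes, 7 were tested. Their medians were 0.11, 0.19 and 0.08 for the fraction ratios in A-431, U-251MG and U-2 OS, with 1 called higher and 1 lower for A-431, 1 and 1 for U-251MG and 1 and 0 for U-2 OS. The receptor itself, NR3C1, was higher in total RNA in all 3 lines, at 0.39, 0.48 and 0.25 (edgeR adjusted p of 7.67e-05, 0.000224 and 0.000478). Between lines the list had no common direction. For A-431 over U-2 OS in total RNA 3 were higher and 4 lower, with TSC22D3 at 1.91 and FKBP5 at 1.12, and KLF9 at -3.77, all 3 called.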

How the data were processed

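Counts are the deposited whole-number HTSeq 0.4.6 counts of 24 libraries, made by the authors (Ensembl genes, strand ignored, unique alignments) after TopHat 1.1.4 had placed reads of 100 bases on hg19. SAMtools 0.1.8 is also named. The deposited RPKM values, computed by the authors with rpkmforgenes, were used as such. On the RNA extraction and on single or paired reads the labels and the study's methods differ. The 6 entries per file that name no gene were removed (13.9% to 21.5% of reads lay outside exons). Symbols and coordinates came from GENCODE v44lift37, which holds 42986 of the genes.

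Tests used edgeR 4.0.16 in R 4.3.3 (filterByExpr, TMM, robust quasi-likelihood), within each line for fractions and in 1 model over 6 groups between lines. The alternatives tried were RLE scaling, DESeq2 1.42.0, other thresholds, no filter, thinning to 19918911 counts, log2(RPKM + 0.1 or 1) with limma 3.58.1 (RPKM of at least 1 in 3 libraries, or no filter), GC and transcript length offsets, all libraries, flow cell A, 1 model, each library left out and, added after seeing the data, pseudogene counts summed with their parents, flow cell as a covariate in U-251MG and the study's replicate number as a block. The labels share no number between groups, so this number was tied to libraries by read totals. Libraries of the 2 fractions with the same number deviated together from their group means in U-2 OS (r of 0.18, 0.42 and 0.41 over 10298 genes), but not in every pair of the other lines. Windows were placed with minimap2 2.31. The scripts were tested on simulated data. The members and lists were chosen with earlier results of these data known, and MT2P1 was added to its list after its values were seen. All 9 members are named, as are up to 4 genes of each other list with the highest mean level and 5 genes most like MT2A.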

Additional observations from a re-analysis of the deposited data

Results flagged for a closer look

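MTF1 in A-431 cytoplasmic library 24 had 14.5 CPM, while the other 3 libraries of the group lay between 15.782 and 15.8494 CPM, a gap that takes up 0.9503 of the range of the group. It was the 1 such case in 27 groups of 4 libraries checked, and chance gives about 1 in 20.

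The fraction ratio of MT2A differed between A-431 and U-2 OS by a log2 value of -0.55 in an interaction test (edgeR adjusted p = 0.0487). This call just passed the threshold of 0.05. It was kept in 4 of 23 fits that each left out 1 library and under 3 of 12 other settings. The ratio was below 0 in A-431 and above 0 in U-2 OS, where it was 0.06 on flow cell A alone, with 1 cytoplasmic library. The cytoplasmic libraries used ran on flow cell B for all 4 of A-431 and on A or B for U-2 OS. In A-431 flow cell and fraction thus cannot be told apart.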

How the results depend on the processing

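Of the log2 ratios recomputed under settings other than leaving out a library, 586 kept their direction and call, 52 lost a call, 15 gained one, and 27 that were not called and 2 that were turned their direction. The called ones were both of MTF1 with a transcript length offset, at 0.032 for A-431 over U-251MG in total RNA and 0.14 for A-431 over U-2 OS in cytoplasmic RNA. The number of members called for total over cytoplasmic RNA was 4 in each line at an adjusted p under 0.05. In A-431, with 2 called, it was 0 on RPKM values (all 3 versions) and with the GC offset, and 1 with the length offset or 1 model over all groups. In U-251MG, with 0 called, it was 2 with DESeq2 or 1 model and 1 with no filter or the replicate block. In U-2 OS, with 1 called, it was 3 with no filter, 2 with the replicate block and 0 on RPKM values, with the GC offset, on flow cell A or in 1 model. With MT1F counted, on RPKM values A-431 over U-251MG gave 3 in total RNA and 2 in cytoplasmic RNA, against 6 and 5. For U-251MG over U-2 OS, with 2 called in each, the threshold of 0.05 gave 4 in total RNA and 5 in cytoplasmic RNA. The 5 include MT1F, which had 10 reads in U-251MG cytoplasmic RNA and 0 in that of U-2 OS. The 1 call for a difference in fraction ratio between A-431 and U-2 OS fell to 0 at 0.001, with RLE scaling, no filter, thinned counts, RPKM values, either offset or the replicate block, while that between U-251MG and U-2 OS, with 0, gave 1 with no filter. The causes were not tested. Apart from DESeq2, shares of all genes called under these settings are not at hand, so a change in a count is not read as one about the members. Leaving out 1 library gave, for the fractions, 0 to 2 calls in A-431 and in U-2 OS, and 0 to 1 in U-251MG. Between lines, with MT1F counted, it gave 5 in total and 4 to 6 in cytoplasmic RNA for A-431 over U-2 OS, 4 to 6 and 5 for A-431 over U-251MG, and 2 and 2 to 3 for U-251MG over U-2 OS. For the differences in fraction ratio it gave 0 to 1 for A-431 against U-2 OS, 0 for A-431 against U-251MG and 0 to 1 for U-251MG against U-2 OS.

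With the other genes and pseudogenes of the family added, the summed level was 89.3 and 110.0 CPM in total and cytoplasmic RNA of A-431, 144.6 and 162.7 CPM in U-251MG and 203.8 and 188.6 CPM in U-2 OS. No scaling moved the median of all genes by more than 0.0812. With the study's replicate number as a block, pairing by read totals and chosen after seeing the data, 3 members were called in A-431, where MT2A was called at -0.29 (edgeR adjusted p = 0.000207), and SLC30A1 was called in U-251MG at 0.61 (0.000987). The share of all genes called with the block is not at hand, so the count of 3 is not read as a result about the members. Same-numbered libraries of the 2 fractions correlated at 0.03 to 0.48 in A-431 and -0.54 to 0.48 in U-251MG, and there not every library correlated best with its own number. Depth limits MT1A, MT1G and MT1M, which had too few reads to test.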

Other observations

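Some RPKM values went against the counts of the same library. MT1G was listed at 9.14 RPKM in U-251MG cytoplasmic library 19, where no read was counted in it by HTSeq, and MT1M at 1.33 RPKM in U-2 OS total library 1, where it had no count either. SLC30A1 was listed at 8.96, 9.73, 7.20 and 8.01 RPKM in the A-431 total libraries, against 7.69, 7.27, 12.02 and 6.52 RPKM in A-431 cytoplasmic libraries 21 to 24. Library 23, with 12.02 RPKM, had 26.7 CPM of SLC30A1, within the range of its group. MT1E in U-2 OS total RNA ranged over 339.1 to 578.6 RPKM, while its CPM ranged over 37.5 to 49.3. Which reads the RPKM values hold and the counts do not was not tested.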
